A study of Mus musculus with 18 samples.

Results

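The 9 genes described here mark the first steps of T cell development: TCF7, GATA3, CD7, THY1, CD3E, CD3G, BCL11B, IL2RA and LCK. They were chosen by name. All 9 were found in both deposited tables of transcript levels, out of 25601 distinct gene names. The RNA came from LSK cells, named for their surface markers (Lineage-negative, Sca1+, cKit+), the fraction of bone marrow in which blood stem cells and early progenitors are found. All mice were C57Bl/6. There were 18 libraries in 6 groups, each with 3.

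Each freshly sorted library held LSK cells pooled from 3 mice that were either unirradiated controls or had received 2.5 Gy from a Cs-137 source and recovered for at least 9 weeks. Each cultured library started from 200 LSK cells of 1 mouse of either kind, grown for 6 days with stem cell factor of mouse, with human IL-6, IL-11 and Flt3L, and then sorted again as LSK cells. Every cultured group therefore received the same 4 cytokines. Cultures of control and of irradiated cells were grown without or with DL1, read here as the Notch ligand Delta-like 1. The labels do not say how DL1 was presented. The series title names an antagonism between Notch and C/EBPα, a myeloid transcription factor. The members here are genes that Notch signalling is known to engage when progenitors turn toward the T lineage.

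A progenitor that receives a Notch signal in the thymus first switches on the transcription factors TCF1, the product of TCF7, and GATA3. BCL11B follows and closes off the other lineages, and IL2RA, which encodes CD25, appears at about the same stage. The CD3 chains belong to the receptor complex that the cell later assembles, and the kinase LCK phosphorylates them. CD7 and THY1 are surface glycoproteins of lymphoid cells. None of these genes is restricted to T cells: natural killer and other innate lymphoid cells share most of them, and THY1 is also found on stem cells and other cell types.

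Levels are FPKM, fragments scaled to transcript length and library size, given as mean ± SD with n = 3 libraries. Changes are given as log2 fold changes of FPKM + 1, ± the standard error, a scale that understates changes of low genes. Adjusted p are from limma over all genes tested, those with a mean of at least 1 FPKM over the libraries of a table. Depth relative to the first control of each table, read from the smallest values, lay between 0.645 and 1 in freshly sorted libraries and between 0.488 and 1.09 in cultures, with irradiated replicate 2 with DL1 the lowest. LSK identity was checked on the sort marker genes. Kit stood at 34.9 ± 2.77 FPKM and Ly6a, the gene of Sca1, at 496 ± 64.9 in control cultures, against 106 ± 10.2 and 166 ± 40.2 in freshly sorted controls. Flt3, a cytokine receptor gene of multipotent progenitors kept in the same list, rose with DL1 from 14.5 ± 1.67 to 29.1 ± 3.60 FPKM in control and from 6.23 ± 1.29 to 23.3 ± 2.26 in irradiated cultures. Without DL1, Flt3 (-1.11 ± 0.13) and the progenitor marker gene Cd34 (-0.58 ± 0.067) fell after irradiation. The part of such a shift among the sorted cells in the member values was not tested. These are bulk samples, so a change in the number of cells that express a gene cannot be told apart from a change in RNA per cell.

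DL1 raised the T lineage transcription factor TCF7 and the surface glycoprotein CD7 about as much in irradiated as in control cultures, raised GATA3, CD3G and LCK, and lowered THY1. BCL11B, IL2RA and CD3E stayed under 1 FPKM in every culture. Of the 9 members, 5 passed the expression filter in the cultured table. With DL1, 4 of these rose and 1 fell in control cultures, where 14% of all tested genes rose and 12.3% fell. In irradiated cultures also 4 rose and 1 fell, against 24.4% and 17% of all tested genes. GATA3, counted among those that rose, passed the filter only through its level with DL1. With median-ratio scaling between libraries, higher genes made up 42.7% of the calls in control cultures against 53.1% as deposited, and 45.4% against 59% in irradiated cultures, while each of the 5 members stayed called in its direction. The groups without and with DL1 did not overlap for any of these 5, 4 higher and 1 lower. Of all tested genes 29.4% were apart upward and 19% downward in control cultures, and 28.7% and 19.7% in irradiated cultures.

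**Figure D1:**
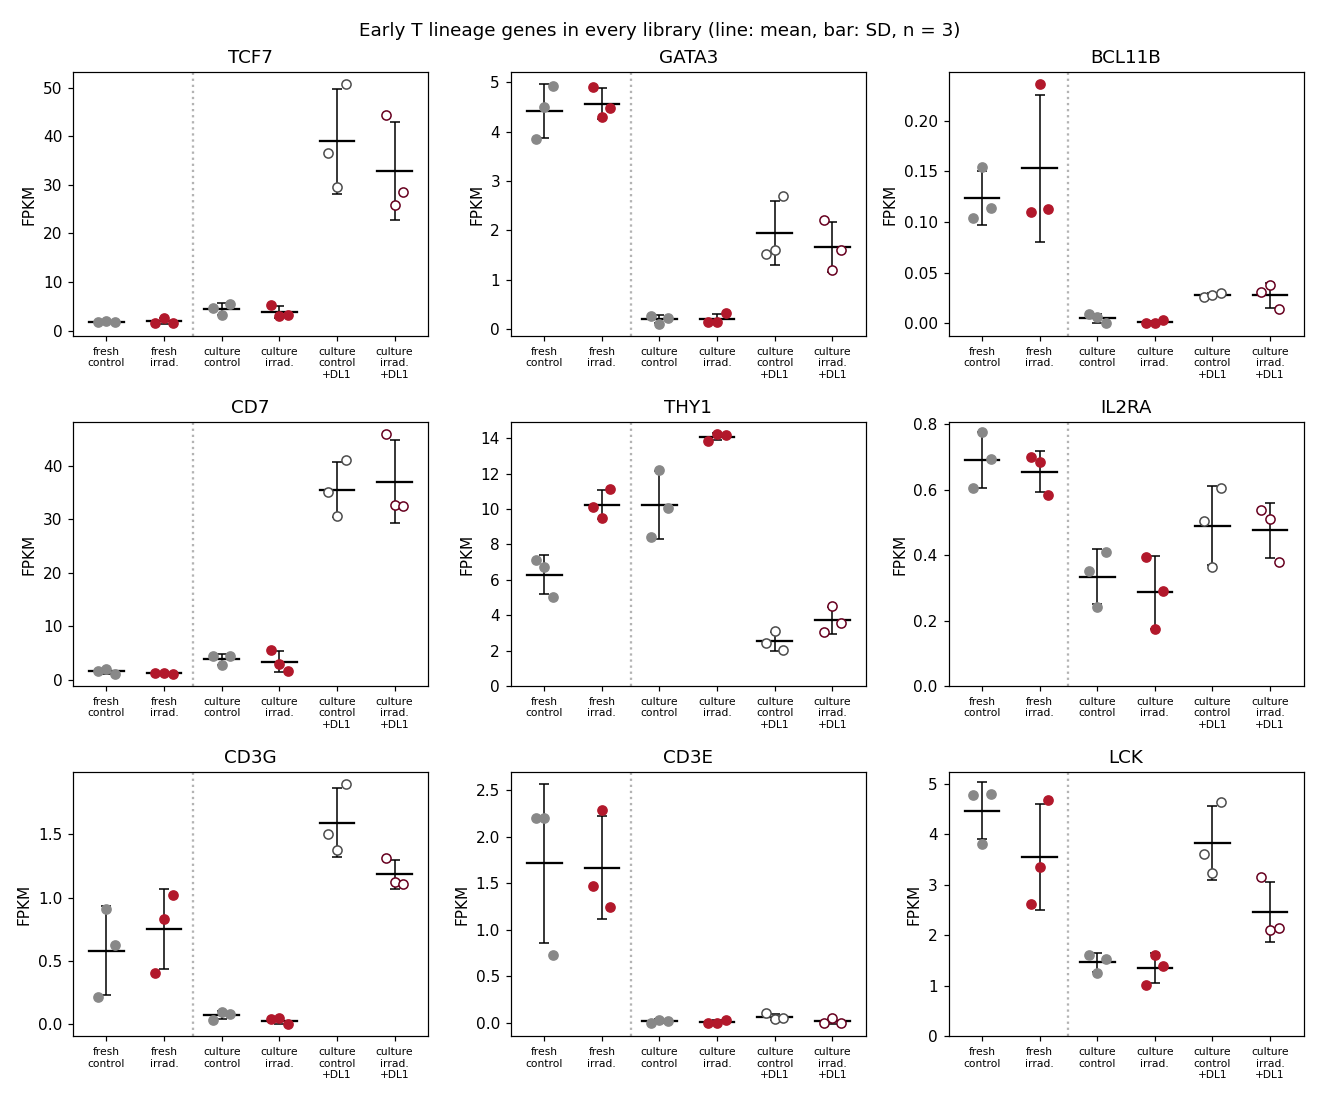
FPKM of the 9 genes in each library (points), with the group mean (line) and SD (bar), for fresh and cultured groups left and right of the dotted line; open points are cultures with DL1. In TCF7 and CD7 all 6 DL1 cultures lie above 25 FPKM and all other libraries below 6, while in THY1 the DL1 cultures are the lowest of all.

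TCF7 was the most abundant member in control cultures with DL1. Its values were 4.71, 3.13 and 5.45 FPKM in control cultures and 36.6, 29.5 and 50.8 in control cultures with DL1. The lowest culture with DL1 stood far above the highest without it, an 8.79-fold difference of means (log2 fold change 2.87 ± 0.25, adjusted p = 7.53e-06). Irradiated cultures held 5.32, 2.93 and 3.30 FPKM without and 44.4, 25.7 and 28.5 with DL1, an 8.55-fold difference (2.80 ± 0.25, adjusted p = 5.17e-06). Replicate 1 was the highest irradiated culture both without and with DL1, and replicate 3 the highest control culture in both states. The change with DL1 did not differ measurably between irradiated and control cultures (difference -0.07 ± 0.35, adjusted p = 0.966).

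GATA3, the zinc finger factor that TCF1 works with in early T cells, was nearly silent in cultures without DL1. Its values were 0.259, 0.104 and 0.230 FPKM in control and 0.151, 0.146 and 0.321 in irradiated cultures. With DL1 they were 1.53, 1.61 and 2.70 in control and 2.20, 1.2 and 1.59 in irradiated cultures. The groups without and with DL1 did not overlap in either case. GATA3 rose 9.82-fold in control (1.28 ± 0.16, adjusted p = 9.96e-05) and 8.09-fold in irradiated cultures (1.13 ± 0.16, adjusted p = 1.71e-04). Its mean over the 12 cultures was 1.003 FPKM, so it was tested only because of its level with DL1.

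The GATA3 values rest on few sequenced fragments, which could be counted. For 5 members (GATA3, CD7, THY1, CD3E and CD3G) the values in all 18 libraries were whole multiples, within 0.1, of a single step, taken as the value of 1 fragment. GATA3 then stood for 23, 7 and 19 fragments in control cultures and 132, 155 and 231 with DL1. In irradiated cultures it stood for 12, 10 and 24 fragments without and 185, 52 and 149 with DL1. The 52 fragments came from the library of lowest depth, whose FPKM was the lowest of the 6 DL1 cultures.

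BCL11B, the factor whose onset marks commitment to the T lineage, did not reach 0.04 FPKM in any culture. Control cultures were listed at 0.00898, 0.00616 and 0 FPKM without and at 0.0259, 0.0277 and 0.0297 with DL1. Irradiated cultures were listed at 0, 0 and 0.00276 without and 0.0305, 0.0382 and 0.0137 with DL1. Each DL1 culture was above each culture without DL1, at levels below the expression filter. In the fit without that filter the change was 0.03 ± 0.010 in control (adjusted p = 0.0511) and 0.04 ± 0.010 in irradiated cultures (adjusted p = 0.0190). Freshly sorted control LSK cells held 0.124 ± 0.0267 FPKM, in a table that was normalized separately and is set beside the cultures without a test.

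CD7 reached levels that overlapped with those of TCF7. Its values were 4.33, 2.64 and 4.33 FPKM in control cultures and 35.0, 30.6 and 41.0 with DL1, a 9.43-fold difference (2.95 ± 0.27, adjusted p = 1.10e-05). In irradiated cultures they were 5.62, 2.82 and 1.68 without and 45.9, 32.6 and 32.6 with DL1, an 11-fold difference (3.20 ± 0.27, adjusted p = 3.46e-06). The lowest culture with DL1 lay above the highest without it in both states. Fragments numbered 113, 52 and 105 in control cultures and 891, 867 and 1031 with DL1. The change with DL1 did not differ measurably between irradiated and control cultures (difference 0.25 ± 0.38, adjusted p = 0.855).

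THY1 went the other way. Control cultures held 8.40, 12.2 and 10.1 FPKM without and 2.45, 3.09 and 2.02 with DL1, a 4.06-fold lower mean (-1.67 ± 0.14, adjusted p = 6.52e-06). Irradiated cultures held 13.9, 14.2 and 14.2 without and 3.04, 4.55 and 3.58 with DL1, a 3.79-fold lower mean (-1.69 ± 0.14, adjusted p = 3.31e-06). No culture with DL1 reached the lowest culture without it. The fragments fell from between 397 and 442 to between 92 and 159 in control cultures. The change did not differ measurably between irradiated and control cultures (difference -0.02 ± 0.20, adjusted p = 0.984).

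Markers of macrophages moved in the same direction as THY1. All 8 tested macrophage markers fell with DL1 in control cultures, among them Csf1r, the receptor for macrophage colony-stimulating factor (-1.45 ± 0.17), and Mrc1, the mannose receptor (-2.51 ± 0.28). Among all tested genes 12.3% fell there. Mrc1 passed the filter only through its level without DL1, as did Fcrls of the same list. Their summed level lay between 189 and 301 FPKM in control cultures and between 71.4 and 92.4 with DL1. It lay between 395 and 633 FPKM in irradiated cultures and between 123 and 133 with DL1. The part of these cells in the THY1 change was not tested.

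IL2RA, the gene of the alpha subunit of the interleukin-2 receptor, lay below the expression filter throughout. Its values were 0.353, 0.243 and 0.410 FPKM in control cultures and 0.505, 0.363 and 0.606 with DL1. Those of irradiated cultures were 0.396, 0.174 and 0.290 without and 0.537, 0.512 and 0.379 with DL1. The groups overlapped in both states, and in the fit without the filter neither passed (0.16 ± 0.080, adjusted p = 0.222 and 0.20 ± 0.080, adjusted p = 0.0897).

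The genes of the CD3 chains, CD3G and CD3E, lie in the same cluster on mouse chromosome 9, with start sites 29180 bases apart. CD3G stood at 0.0366, 0.0967 and 0.0787 FPKM in control cultures, which is 1, 2 and 2 fragments, and at 1.5, 1.38 and 1.90 with DL1, which is 40, 41 and 50 fragments. Irradiated cultures held 1, 1 and 0 fragments without and 34, 15 and 32 with DL1. The last 3 stand for 1.31, 1.12 and 1.11 FPKM. The 6 cultures without DL1 thus held at most 2 fragments each, and those with DL1 at least 15.

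Scaled for depth, CD3G was 23.2 times as high with DL1 in control cultures (95% exact binomial interval 9.71 to 72.8, from 131 against 5 fragments). In irradiated cultures the ratio was 40.9 (10.96 to 343, from 81 against 2). These intervals cover counting error only. CD3G lay below the expression filter, with a mean of 0.719 FPKM over the cultures. In the fit without the filter it rose by 1.27 ± 0.067 in control (adjusted p = 9.93e-06) and by 1.08 ± 0.067 in irradiated cultures (adjusted p = 8.23e-06). In that fit 5 of the 9 members rose with DL1 in control and 6 in irradiated cultures, where 9.69% and 15.6% of all genes did.

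CD3E had hardly any fragments in culture. Control cultures held 0, 1 and 1 fragments without and 4, 2 and 2 with DL1. Irradiated cultures held 0, 0 and 1 without and 0, 1 and 0 with DL1. The ratio with DL1 in control cultures was 3.55, with an interval from 0.708 to 34.3 that includes no difference. The groups did not overlap there, and in the fit without the filter CD3E did not pass (0.07 ± 0.027, adjusted p = 0.126). The intervals of CD3G and CD3E overlapped, and their changes were not compared in a test. A count of 0, which allows up to 3 fragments, allowed up to 0.0771 FPKM in the first control culture. Freshly sorted LSK cells held 59, 38 and 15 fragments of CD3E in controls and 36, 59 and 33 after irradiation, so the gene was readily counted in that table. The third CD3 subunit gene, Cd3d, chosen after its values were seen, stood at 0.162 ± 0.0447 FPKM in control cultures and 0.615 ± 0.208 with DL1.

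**Figure D2:**
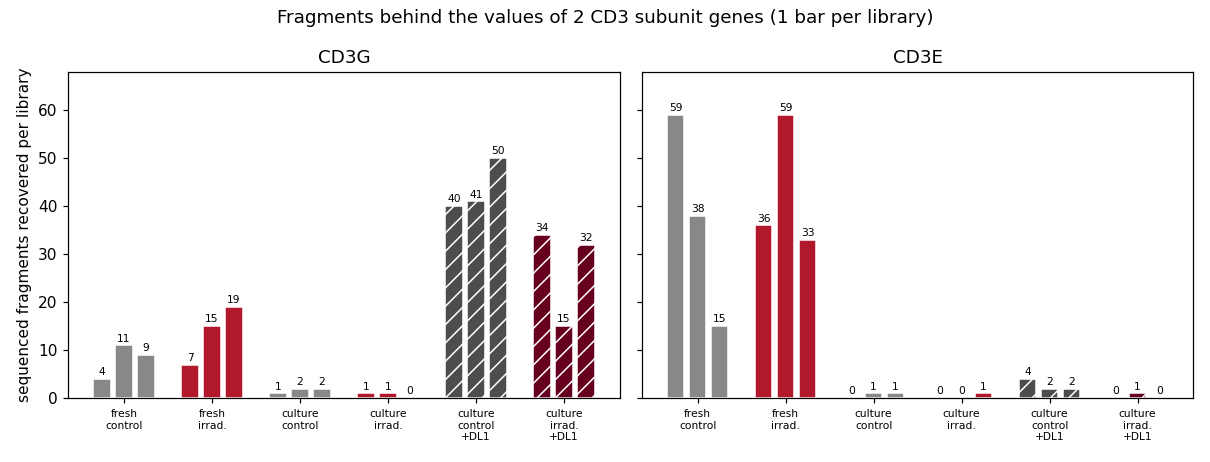
Sequenced fragments (vertical axis, linear) of CD3G and CD3E recovered from the values of each library, 1 bar per library, hatched for cultures with DL1. CD3G has 15 to 50 fragments in cultures with DL1, 0 to 2 in those without and 4 to 19 in freshly sorted cells, whereas CD3E has at most 4 in any culture and 15 to 59 in freshly sorted cells.

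The sequences before the start sites of CD3G, CD3E and LCK are shown because these 3 members had the RBPJ core letters there. RBPJ is the DNA-binding partner of Notch, and its core was searched as TGGGAA on both strands. GATA sites were searched as AGATAA or TGATAA and the TCF core as CTTTGA. RefSeq windows of GRCm38.p6 were found for 7 members (none for CD7 and THY1), 9 windows in all, and the 250 bases before each start were searched. Capitals mark the matches, all strands are minus, and bases inside the annotated gene are left out of CD3E. Over all 32851 windows of the same length, 21.6% held the RBPJ core, 13.8% the TCF core and 16.6% a GATA site.
CD3G, chr9:44980432-44980681: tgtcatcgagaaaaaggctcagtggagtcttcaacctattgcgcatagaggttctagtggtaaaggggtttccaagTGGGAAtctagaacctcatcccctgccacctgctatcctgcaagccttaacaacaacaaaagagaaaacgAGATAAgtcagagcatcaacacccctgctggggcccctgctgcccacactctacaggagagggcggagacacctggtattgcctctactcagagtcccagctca
CD3E, chr9:45009664-45009861: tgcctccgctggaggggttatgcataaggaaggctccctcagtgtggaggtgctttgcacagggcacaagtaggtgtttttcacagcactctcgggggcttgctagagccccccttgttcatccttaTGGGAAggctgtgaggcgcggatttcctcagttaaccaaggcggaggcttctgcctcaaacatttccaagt
LCK, chr4:129573642-129573891: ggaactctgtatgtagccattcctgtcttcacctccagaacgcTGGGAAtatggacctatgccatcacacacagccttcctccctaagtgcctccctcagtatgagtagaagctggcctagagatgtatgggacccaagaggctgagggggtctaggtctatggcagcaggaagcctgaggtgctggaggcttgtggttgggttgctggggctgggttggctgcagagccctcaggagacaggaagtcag

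In CD3G the RBPJ core lies 174 to 169 bases before the start and a GATA site 104 to 99 bases before it. In CD3E the RBPJ core lies 123 to 118 bases before the start, and in 1 of the LCK windows, the one shown, 207 to 202. The windows of TCF7 and GATA3, which rose, held none of the letters searched, and that of BCL11B held the TCF core. The other LCK window and the window of IL2RA held none of them either. A match of 6 letters is a description of the sequence and no evidence of binding.

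LCK, the Src family kinase that phosphorylates the CD3 chains, was expressed in every group. Its values were 1.60, 1.26 and 1.54 FPKM in control cultures and 3.61, 3.24 and 4.64 with DL1, a 2.61-fold difference (0.96 ± 0.14, adjusted p = 2.99e-04). In irradiated cultures they were 1.02, 1.62 and 1.4 without and 3.15, 2.11 and 2.14 with DL1, a 1.83-fold difference (0.56 ± 0.14, adjusted p = 0.00780). The groups did not overlap in either case. The smaller change in irradiated cultures was not shown to differ from that in control cultures (difference -0.40 ± 0.20, adjusted p = 0.499).

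**Figure D3:**
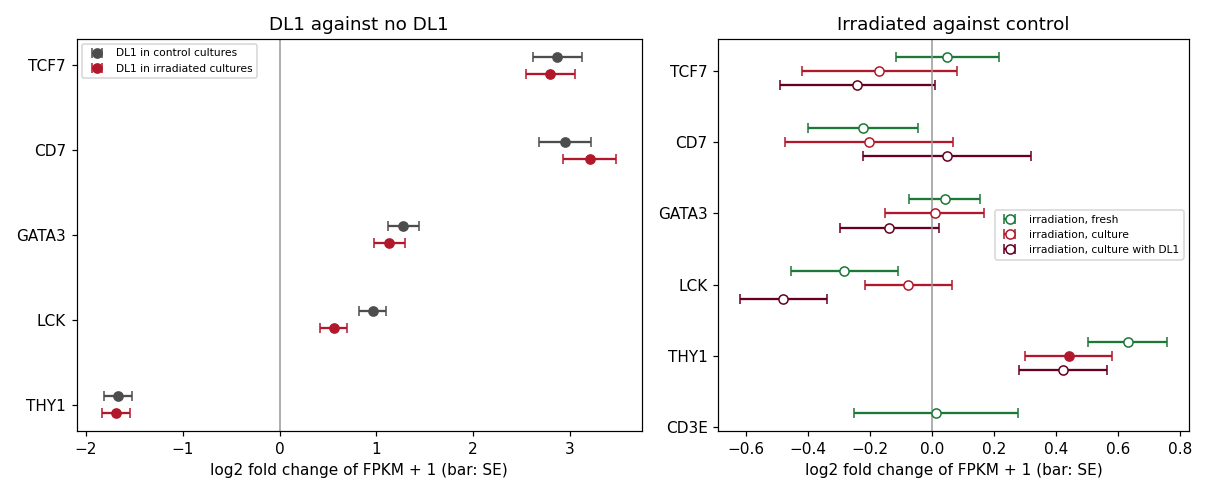
Log2 fold changes of FPKM + 1 (horizontal axes) with standard errors for the members that passed the expression filter; filled points passed at an adjusted p under 0.05. The left panel sets DL1 against no DL1, where all 5 members are called in both states, and the right panel irradiated against control, where THY1 in cultures without DL1 is the only call.

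Ordered by level in control cultures with DL1, TCF7 (38.9 ± 10.8 FPKM) and CD7 (35.5 ± 5.22) came first and overlapped. LCK (3.83 ± 0.727) and THY1 (2.52 ± 0.541) followed without overlap. GATA3 (1.94 ± 0.655) overlapped with THY1 and with CD3G (1.59 ± 0.270). IL2RA (0.491 ± 0.122), CD3E (0.0687 ± 0.0320) and BCL11B (0.0278 ± 0.00192) were lowest, each below every library of the gene before it. In freshly sorted controls the order was another, with THY1 (6.30 ± 1.11), LCK (4.47 ± 0.564) and GATA3 (4.42 ± 0.543) first. TCF7 (1.83 ± 0.172), CD3E (1.71 ± 0.850) and CD7 (1.56 ± 0.496) came next and overlapped, before IL2RA (0.692 ± 0.0851) and CD3G (0.581 ± 0.349), which also overlapped. BCL11B was the lowest there too (0.124 ± 0.0267).

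After irradiation the members called were too few to stand apart from the share of all tested genes. In freshly sorted LSK cells 0 of 6 tested members passed in limma, where 0.101% of all tested genes passed, and 1 of the 6 had an unadjusted p under 0.05, as had 6.87% of all tested genes. That member was THY1, at 7.13, 6.72 and 5.04 FPKM in controls and 10.1, 9.48 and 11.1 after irradiation, without overlap (0.63 ± 0.13, adjusted p = 0.219). The groups were apart in this direction for 7.42% of all tested genes. In fragments THY1 counted 232, 141 and 126 in controls and 302, 297 and 358 after irradiation. Only 13 of the 12890 tested genes were called as deposited, and 69.2% of these were higher. After rescaling without ribosomal and small RNA rows, 52.2% of calls were higher.

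The other fresh values overlapped between the groups. TCF7 stood at 1.76, 2.02 and 1.70 FPKM in controls and 1.65, 2.64 and 1.58 after irradiation (0.05 ± 0.17). GATA3 stood at 3.85, 4.5 and 4.93 against 4.91, 4.30 and 4.48 (0.04 ± 0.11). CD3E stood at 2.20, 2.20 and 0.730 against 1.47, 2.29 and 1.25 (0.01 ± 0.26). CD7 (-0.22 ± 0.18, adjusted p = 0.904) and LCK (-0.28 ± 0.17, adjusted p = 0.841) had lower means after irradiation and did not pass. CD3G, at 4, 11 and 9 fragments in controls and 7, 15 and 19 after irradiation, was below the filter, as were IL2RA and BCL11B.

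In cultures without DL1, THY1 rose after irradiation, 1.38-fold (0.44 ± 0.14, adjusted p = 0.0348), and the groups did not overlap. It was 1 of 5 tested members, where 29.7% of all tested genes passed and 13.8% rose. Groups were apart upward for 17.6% of all tested genes. The call held without control replicate 2 (adjusted p = 0.0237). It was lost without control replicates 1 and 3 (adjusted p = 0.132 and 0.0711), and without irradiated replicates 1, 2 and 3 (0.0772, 0.0828 and 0.0544). It was lost as well with a pseudocount of 0.1 (0.0547) and without the expression filter (0.0777). All 8 tested macrophage markers rose in the same comparison, and their part in the THY1 change was not tested. Higher genes were 46.5% of calls as deposited and 57.6% with median-ratio scaling.

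In cultures with DL1, 0 of 5 tested members passed after irradiation in limma, where 3.16% of all tested genes did, and 2 of the 5 had an unadjusted p under 0.05, as had 18.6% of all tested genes. THY1 overlapped between the groups (0.42 ± 0.14, adjusted p = 0.139), and LCK did not overlap, being lower in irradiated cultures (-0.48 ± 0.14, adjusted p = 0.0926). CD3G was also lower without overlap, 0.752 times as high after scaling for depth (95% exact interval 0.563 to 1, from 81 against 131 fragments), and did not pass in the fit without the filter (-0.24 ± 0.067, adjusted p = 0.132), where 1.12% of genes passed. Groups were apart downward for 17.5% of all tested genes. In the test of the difference between the changes with and without DL1, 0 of 5 members passed in limma, against 0.0749% of all tested genes, and 0 had an unadjusted p under 0.05, against 10.4%.

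Genes of the wider T lineage program were counted from lists chosen with earlier results known. These lists hold the members too: TCF7 and GATA3 among the transcription factors that rose, LCK among the signalling genes, and CD7 and THY1 among the surface receptors. Of 14 T lineage transcription factors 11 were tested, and 6 rose and 1 fell with DL1 in control cultures (median 0.22, against 0.04 over all genes tested). They included Tox, an HMG box factor of developing T cells, from 0.144 ± 0.0309 to 2.40 ± 0.496 FPKM (1.56 ± 0.15), and Runx3 (0.50 ± 0.071). Tox, like GATA3, was tested only because of its level with DL1. In irradiated cultures 6 rose and 1 fell as well (median 0.28, against 0.06 over all genes). Over all tested genes 14% rose and 12.3% fell with DL1 in control cultures, and 24.4% and 17% in irradiated cultures. Among genes of T cell receptor signalling, 7 of 15 were tested, and 5 rose and 1 fell in control cultures. The kinase gene Fyn (0.45 ± 0.065) and the adaptor gene Lcp2 (0.46 ± 0.058) were among those that rose. The costimulatory receptor gene Cd28 fell from 6.46 ± 0.820 to 1.05 ± 0.235 FPKM (-1.87 ± 0.13).

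Of 10 thymocyte surface receptors 7 were tested, and 3 rose and 2 fell in control cultures, where 14% of all tested genes rose and 12.3% fell. Il2rg, the common cytokine receptor chain, rose with CD7 (0.51 ± 0.059) and the adhesion receptor Cd44 fell with THY1 (-0.54 ± 0.067). Of 7 direct Notch targets 3 passed the filter. The repressor gene Hes1 rose from 0.637 ± 0.151 to 2.95 ± 0.366 FPKM (1.27 ± 0.12), Nrarp, a feedback inhibitor, rose (0.57 ± 0.13), and the receptor gene Notch1 fell (-0.46 ± 0.091). Hes1 stood below 1 FPKM in every culture without DL1 and passed the filter through its level with it. In irradiated cultures Hes1 (1.004 ± 0.12) and Nrarp (0.45 ± 0.13) rose and Notch1 fell (-0.58 ± 0.091) too.

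**Figure D4:**
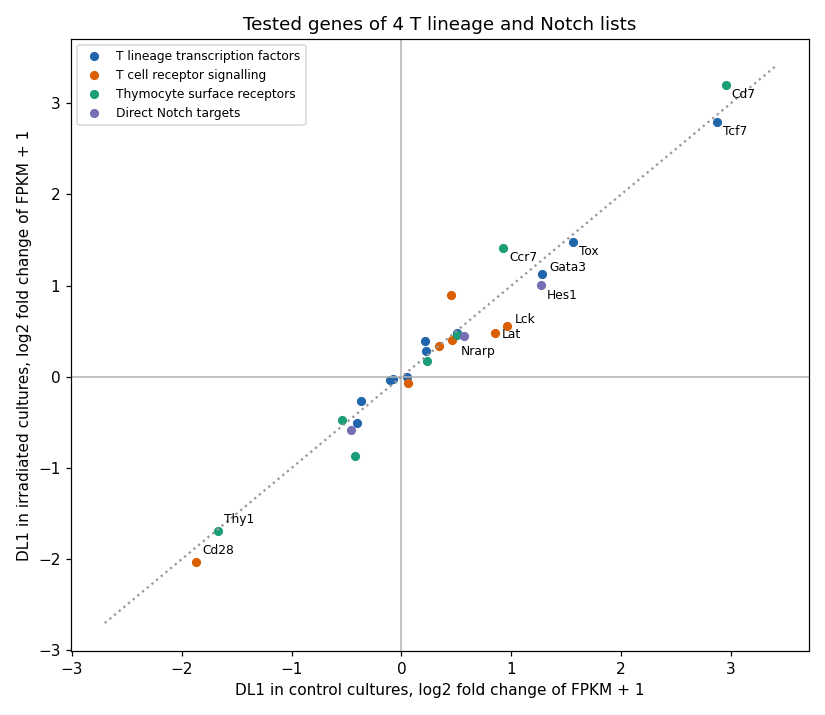
Log2 fold change of FPKM + 1 with DL1 in control cultures (horizontal) and in irradiated cultures (vertical) for the tested genes of 4 lists, with equal changes on the dotted line. Cd7 and Tcf7 lie at the upper right, near 3 on both axes, and Thy1 and Cd28 at the lower left; the 2 comparisons share no library.

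Regulators that T cell precursors shut off at commitment did not move in a single direction. Of 11 genes, all tested, 3 rose and 2 fell with DL1 in control cultures (median 0.16), and 4 rose and 3 fell in irradiated cultures (median -0.03). Over all tested genes the shares were 14% and 12.3% in control cultures, and 24.4% and 17% in irradiated cultures. Bcl11a, a factor of B and dendritic cell development, rose (0.88 ± 0.12), as did the homeobox gene Hhex (0.48 ± 0.051). The stem cell factor genes Lyl1 (-0.38 ± 0.074) and Erg (-0.30 ± 0.066) fell.

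Genes of receptor assembly that come later in T cell development were scarce in culture. Of the 9 genes of this list 1 was tested with DL1, the CD3-associated chain gene Cd247, which did not pass (-0.13 ± 0.10). The recombinase gene Rag1, singled out after its values were seen, was listed at 0 in all 3 control cultures and at no more than 0.00559 FPKM with DL1. Dntt, which adds bases at receptor gene joints and was likewise singled out, stood at 135 ± 76.5 FPKM in freshly sorted controls. It stood at 0.0409 ± 0.0562 FPKM in control cultures and 0.0440 ± 0.0464 with DL1. Trat1 of the same list, also singled out, stood at 0.0187 ± 0.0324 FPKM in control cultures and 1.28 ± 0.492 with DL1. In irradiated cultures Trat1 stood at 0.0241 ± 0.0418 FPKM without and 0.868 ± 0.485 with DL1.

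Markers of other lymphoid cells were read beside the members. The 9 mature T cell markers summed to between 1.10 and 1.22 FPKM in control cultures and between 2.79 and 3.87 with DL1, and 0 of them passed the filter in culture. Cd4 stood at 0.0393 ± 0.0391 FPKM and Cd8a at 0.0905 ± 0.00761 in control cultures with DL1, and Cd40lg was listed at 0 there. Other genes of the list were higher with DL1 in control cultures. Cd6 went from 0.133 ± 0.00199 to 0.456 ± 0.110 FPKM and Icos from 0.108 ± 0.0426 to 0.334 ± 0.0224. Trat1, given above, is in this list too. Cd8b1 did not follow, at 0.540 ± 0.0229 FPKM without and 0.531 ± 0.0724 with DL1. All of these were picked out without a test. In freshly sorted cells the same list summed to between 6.08 and 7.82 FPKM in controls and between 4.55 and 7.91 after irradiation. Cd4 stood at 2.25 ± 0.286 FPKM in fresh controls. The part of mature T cells in the fresh CD3E, CD3G and LCK values was not tested.

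Of 12 natural killer and innate lymphoid markers 5 were tested, and 3 rose and 0 fell with DL1 in control cultures. Among them, the granzyme gene Gzma went from 0.0154 ± 0.0267 to 5.14 ± 1.76 FPKM (2.56 ± 0.30) and the receptor gene Klrd1 from 3.64 ± 1.60 to 10.6 ± 1.10 (1.37 ± 0.22). Gzma passed the filter only through its level with DL1. In irradiated cultures 3 rose and 1 fell. Over all tested genes 14% rose and 12.3% fell in control cultures, and 24.4% and 17% in irradiated cultures. The list summed to between 5.81 and 8.74 FPKM in control cultures and between 19.9 and 27.1 with DL1. Ncr1, the gene of the receptor NKp46, stood at 0.00871 ± 0.0151 FPKM in control cultures with DL1. Tbx21 of the same list went from 0.0417 ± 0.0436 FPKM in control cultures to 0.557 ± 0.0550 with DL1. Both lay below the filter and were singled out after their values were seen, without a test. The part of such cells in the member values was not tested.

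Dendritic cell markers were mixed with DL1, and only Itgax among those tested changed about as much as CD7. Of 10 markers 4 were tested, and 2 rose and 2 fell in control cultures. Over all tested genes 14% rose and 12.3% fell there, and 24.4% and 17% in irradiated cultures. The integrin gene Itgax rose from 3.29 ± 0.710 to 29.7 ± 4.56 FPKM (2.84 ± 0.22) and Bst2, an interferon-induced surface protein gene, rose (0.62 ± 0.051). The transcription factor genes Irf8 (-0.42 ± 0.086) and Tcf4 (-0.19 ± 0.053) fell. In irradiated cultures 3 rose and 1 fell: Itgax (3.24 ± 0.22), Bst2 (0.55 ± 0.051) and Tcf4 (0.17 ± 0.053) rose and Irf8 (-0.27 ± 0.086) fell. The list summed to between 103 and 112 FPKM in control cultures and between 152 and 168 with DL1, and the part of such cells in the CD7 change was not tested.

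Across the 12 cultures, the genes whose log2 levels ran most like each called member were read as a description, since all points share the split by DL1. TCF7 was closest to the plakoglobin gene JUP (Pearson r = 0.995), HIC1 (0.994) and BCL2L14 (0.994). CD7 was closest to ITGAX, the CD11c integrin gene of dendritic cells (0.997), 1600029D21RIK (0.994) and the cadherin gene CDH1 (0.994). GATA3 was closest to TOX (0.990), SLC35D3 (0.988) and PLEKHG5 (0.987). THY1 was closest to GORASP1 (0.994), the protease inhibitor gene SLPI (0.987) and PPT2 (0.987), and LCK to TSPAN8 (0.977), TMEM184C (0.975) and SMAD2 (0.961).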

How the data were processed

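Transcript levels of 6 freshly sorted and 12 cultured LSK libraries were read from 2 tables of FPKM values deposited by the authors. Per the submitters' processing notes they come from TopHat 1.4.1, Cufflinks 1.3.0 and Cuffdiff, with the human build hg19 named although the samples are mouse. The annotation and further scaling are not given in the sources used here. Each table has 25629 rows; where names repeat (28 rows), the one with the larger mean was used. Column names were matched to sample titles, with 0 left over. The column IR1DL1 was taken as irradiated replicate 1 with DL1. The source field of control samples names irradiated cells, and titles were used instead. The tables were normalized separately, so tests stayed within a table. Fragments per value were recovered by matching values below 1 FPKM between libraries.

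limma 3.58.1 (R 4.3.3) was run on log2(FPKM + 1) using its trended variance prior and a minimum mean of 1 FPKM (12890 genes tested in fresh and 12011 in cultured libraries), with Benjamini-Hochberg adjustment and a threshold of 0.05. The fit was tested on simulated data. All 4 cultured groups shared 1 fit. Members and 13 lists (126 of 127 entries matched) were chosen with earlier results of these data known. Named were all members, the 4 list genes of smallest p with DL1 in control cultures, and the 3 genes most like each called member. Alternatives were other pseudocounts, filters and scalings, no trend, fewer groups, a replicate block and leaving out each library. The labels give 1 mouse per culture and do not say that equal numbers share one. Deviations of same-numbered cultures correlated at 0.235, 0.145 and 0.355 between irradiated cultures without and with DL1, the sole comparison with every pair over 0.1. P-values measure the spread between libraries, of 1 mouse or of 3 pooled mice each.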

Additional observations from a re-analysis of the deposited data

How the results depend on the processing

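The 5 members called with DL1 kept direction and call under each alternative in which they were tested, in control and in irradiated cultures. With a minimum mean of 5 FPKM only 3 members were tested and 3 called in each. Without each library in turn 5 were called, as under the replicate block, which changed no call of a member (TCF7 2.87 ± 0.18 in control cultures). A block within control and within irradiated cultures, chosen after seeing the data, left 5 as well. Same-numbered cultures did not correlate above 0.1 in every pair of the other comparisons. After irradiation in cultures without DL1 the count of 1 member fell to 0 with a pseudocount of 0.1 and without the filter, and ranged from 0 to 1 without each library. Signs of changes that were not called turned under some alternatives. The difference between changes turned for THY1 with a pseudocount of 0.1 (0.070), and the fresh CD3E change with a pseudocount of 5 (-0.0047). Leaving out each library, fresh changes ranged over -0.11 to 0.14 for TCF7, -0.038 to 0.11 for GATA3 and -0.28 to 0.16 for CD3E. Changes after irradiation without DL1 ranged over -0.059 to 0.046 for GATA3, -0.55 to 0.10 for CD7 and -0.16 to 0.026 for LCK, and with DL1 over -0.28 to 0.038 for GATA3 and -0.11 to 0.15 for CD7. The difference between changes ranged over -0.30 to 0.14 for TCF7, -0.29 to 0.029 for GATA3, -0.051 to 0.60 for CD7 and -0.14 to 0.10 for THY1. The cause was not tested. CD3E had at most 4 fragments in any culture, so its values there move in coarse steps, and for BCL11B no fragments could be recovered.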
